A study of Mus musculus with 8 samples.

Results

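The proteasome is the protease that degrades most ubiquitin-tagged proteins in the cytosol and nucleus. The genes described here are the 45 protein-coding mouse genes whose symbol is Psma, Psmb, Psmc, Psmd, Psme, Psmf or Psmg followed by a number, without the immunoproteasome subunits Psmb8, Psmb9 and Psmb10, out of 55487 gene identifiers in the deposited tables. They were chosen by symbol, not by expression. RNA was sequenced from pancreatic islets, picked by hand, of C57BL/6J mice labelled female, which were 10 weeks old when they began 2 weeks on a diet with 60% of its calories as fat. The groups were 5 Ide+/+ libraries and 3 Ide-/- libraries, and the question was what loss of IDE, the insulin-degrading enzyme, does to islet gene expression under this diet. All 8 libraries come from high-fat-fed mice, so the effect of the diet itself was not measured. The labels call the libraries biological replicates but do not give the number of mice behind each, nor how or in which cells Ide was inactivated, so p-values measure the spread between these libraries.

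The core particle of the proteasome is a barrel of stacked rings, with alpha rings that gate the entrance and beta rings that hold the proteolytic sites. Psmb5 carries the chymotrypsin-like site, Psmb7 the trypsin-like site and Psmb6 the caspase-like site. A regulatory particle, made of a base with a ring of ATPases and a lid, binds ubiquitin chains, removes them and unfolds the substrate, while other activators can cap the core in its place. Beta cells make proinsulin in large amounts and depend on the proteasome to clear misfolded protein drawn back out of the endoplasmic reticulum.

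Ide itself fell in every Ide-/- library. Its level was 39.2, 19.5, 20.3, 28.3 and 27.5 CPM (read counts normalised to library size after TMM scaling, edgeR's correction for library composition) in Ide+/+ replicates 1 to 5, against 0.167, 0.285 and 0.367 in Ide-/- replicates 1 to 3 (log2 fold change -6.74, SE 0.39, edgeR quasi-likelihood adjusted p = 6.2e-06). Summed counts were 19277269 to 33371642 per Ide+/+ library and 7143415 to 17445935 per Ide-/- library. The libraries differed in tissue content. Markers of acinar cells, which make digestive enzymes, took 26.2% to 45.4% of all counts in Ide+/+ and 0.797% to 1.78% in Ide-/- libraries, and 29 of 30 such markers fell. Of 12 macrophage markers 11 fell (summed CPM 406 to 751 against 104 to 179), and 7 of 9 duct markers fell. As a share of all counts the macrophage markers overlapped (0.0164% to 0.0583% in Ide+/+, 0.0213% to 0.0274% in Ide-/-). None of 10 beta cell markers passed the test, and their summed CPM overlapped (35340 to 138301 against 83657 to 106206). As a share of all counts they did not overlap, at 1.71% to 7.77% in Ide+/+ and 13.5% to 21.9% in Ide-/- libraries. The part of these differences in the results below was not tested except where a value is given. In bulk samples, fewer cells of a type and less RNA per cell cannot be told apart. Ide+/+ replicates 2 and 3 were far closer to each other than any other pair (chi-square per degree of freedom 5.75, against 56.3 to 691 for the other pairs of the same genotype), yet beyond sampling noise, and were kept as separate libraries. Ide+/+ replicate 1 alone had many Xist counts (692, against 11 or fewer elsewhere) and no counts of Uty, Kdm5d, Eif2s3y or Ddx3y, which lie on the Y chromosome, while the other 7 libraries, though labelled female, held 503 to 2139 counts of Ddx3y.

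Of the 45 genes, 43 passed the filter on low counts and were tested. Psmb5 and Psmb7, which encode 2 of the 3 catalytic subunits of the core, were lower in Ide-/- islets, and no gene was called higher. Called means an adjusted p under 0.05 over all 16266 genes tested. Over all genes 10.6% were called lower and 10.4% higher, so 2 lower and 0 higher of 43 is no larger a share than the background. At an unadjusted p under 0.05 in the edgeR test there were 9 of 43, against 5877 of all 16266 genes. The median log2 fold change was -0.24, against -0.01 over all genes, with 35 genes below and 8 above 0. Most changes were small: 33 of 43 (76.7%) lay within 0.5 of 0 on the log2 scale, against 52.5% of all genes tested. The 95% interval lay wholly within 1 log2 unit of 0 for 35 of the 43, against 39.3% of all genes, with median standard errors of 0.23 and 0.29. Among the 41 genes not called, the intervals ran from -1.56 at the lowest to 0.81 at the highest. For some genes, changes of up to these sizes were not excluded.

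**Figure D1:**
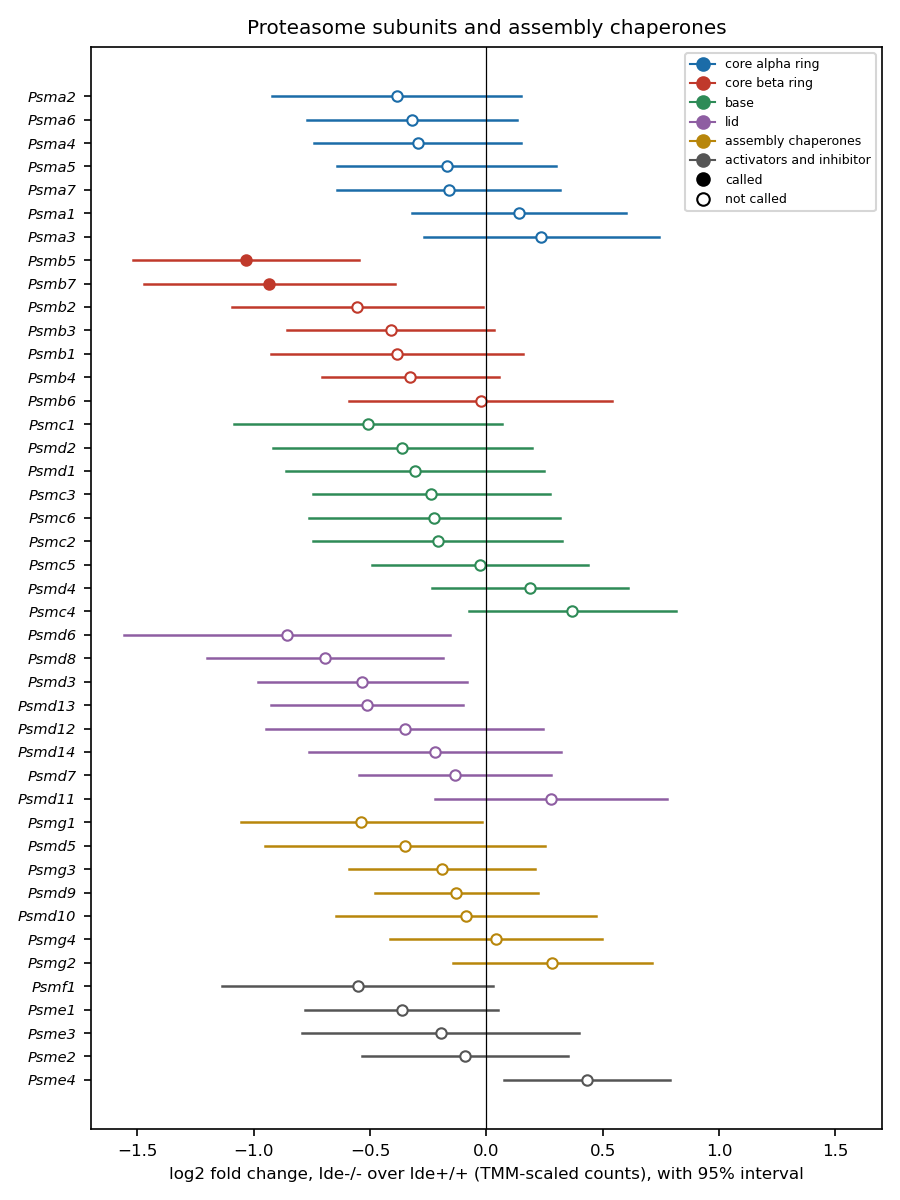
Log2 fold change, Ide-/- over Ide+/+, of each of the 43 tested genes (x axis, TMM-scaled counts; bars are 95% intervals from edgeR's quasi-likelihood fit), grouped by role on the y axis. Filled points passed the test. Psmb5 (-1.03) and Psmb7 (-0.93) are the filled points, and Psme4 (0.43) is the rightmost point.

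The untested genes were Psma8, the testis-specific alpha subunit, with 0 to 13 counts per library, and Psmb11, the thymus-specific catalytic subunit, with 0 to 2 counts.

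Psmb5 (ENSMUSG00000022193, GRCm38 chr14:54614119-54618022, minus strand) stood at 42.7, 25.1, 24.8, 31.0 and 31.1 CPM in the Ide+/+ libraries and at 16.1, 16.2 and 12.7 CPM in the Ide-/- libraries. All 3 Ide-/- values lay below the lowest Ide+/+ value. The means were 30.9 ± 7.25 CPM (SD, n = 5) and 15.02 ± 1.97 CPM (SD, n = 3), a 2.05-fold lower level in Ide-/- (log2 fold change -1.03, SE 0.22, 95% interval -1.52 to -0.55, edgeR adjusted p = 0.0085). The call held when each library was left out in turn, with log2 fold changes of -1.11 to -0.89 and adjusted p of 0.0032 to 0.0495. It rested on 139 to 986 counts per library.

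Psmb7 (ENSMUSG00000026750, chr2:38588036-38644087, minus strand) stood at 45.5, 22.6, 24.4, 25.3 and 29.0 CPM in Ide+/+ libraries, and at 16.6, 16.0 and 13.3 CPM in Ide-/-. The groups did not overlap, and Ide+/+ replicate 1 stood well above the other 4 on this scale. In TPM that library was at 18.65, within the 13.6 to 23.9 of the other 4. The means were 29.4 ± 9.31 CPM (SD, n = 5) and 15.3 ± 1.75 CPM (SD, n = 3), with a log2 fold change of -0.93 (SE 0.25, 95% interval -1.47 to -0.39, edgeR adjusted p = 0.0215). Leaving out Ide-/- replicate 1, 2 or 3 ended the call, with adjusted p between 0.060 and 0.095. The gene body overlaps Nek6 on the opposite strand, which had a mean of 96.4 counts per library against 483 for Psmb7, and the sources used here do not state whether counting used strand. Nek6 itself was not called (log2 fold change -0.83, edgeR adjusted p = 0.0868).

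Psmb6 (ENSMUSG00000018286, chr11:70525367-70527858, plus strand) was the most abundant of the 45 per transcript length in both groups. It stood at 101, 65.2, 71.1, 85.2 and 129 CPM in Ide+/+ libraries, against 74.0, 88.8 and 103 CPM in Ide-/-. The groups overlapped throughout, and the log2 fold change was -0.02 (SE 0.26, 95% interval -0.59 to 0.54, edgeR adjusted p = 0.955). The ratio of Psmb5 to Psmb6, both in TPM (a share of all transcripts that corrects for transcript length), needs no scaling between libraries. It was 0.361, 0.331, 0.300, 0.313 and 0.207 in Ide+/+ libraries, against 0.187, 0.158 and 0.106 in Ide-/-. Every Ide-/- ratio lay below every Ide+/+ ratio, the nearest being Ide+/+ replicate 5 and Ide-/- replicate 1. For Psmb7 to Psmb6 the Ide+/+ ratios ran from 0.139 to 0.285 and the Ide-/- ratios from 0.0821 to 0.140, so that these groups touched.

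**Figure D2:**
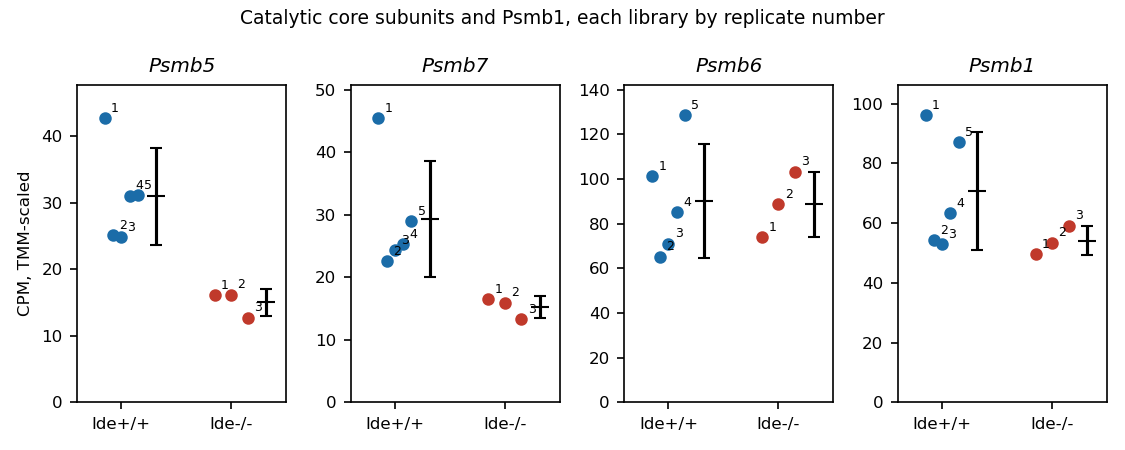
TMM-scaled CPM (y axis, starting at 0) of Psmb5, Psmb7, Psmb6 and the non-catalytic Psmb1 in each library, numbered by replicate, with the mean and SD beside each group. All 3 Ide-/- libraries lie below all 5 Ide+/+ libraries for Psmb5 and Psmb7, while both groups overlap for Psmb6 and Psmb1.

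Proteasome genes are known to be induced together by the factors NRF1 (Nfe2l1) and NRF2 (Nfe2l2) through antioxidant response elements. The promoters of Psmb5, which was called, and Psmb6, which was not, both hold the core letters of that element, and are shown for this contrast. Each run is the 250 bases before the RefSeq start (GRCm38.p6), written 5′ to 3′ on the gene's strand, at chr14:54617996-54618245 (minus) for Psmb5 and chr11:70525107-70525356 (plus) for Psmb6, with the match to TGACNNNGC in capitals.
Psmb5: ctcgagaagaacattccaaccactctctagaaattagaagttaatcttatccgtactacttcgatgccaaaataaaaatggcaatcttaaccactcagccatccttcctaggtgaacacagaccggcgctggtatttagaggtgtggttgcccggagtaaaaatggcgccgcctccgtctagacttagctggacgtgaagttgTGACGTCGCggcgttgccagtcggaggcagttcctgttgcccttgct
Psmb6: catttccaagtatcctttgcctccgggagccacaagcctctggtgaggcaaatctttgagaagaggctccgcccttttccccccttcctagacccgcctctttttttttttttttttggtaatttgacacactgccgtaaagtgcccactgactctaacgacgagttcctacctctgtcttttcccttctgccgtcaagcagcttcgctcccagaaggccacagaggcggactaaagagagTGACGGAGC
The match starts 47 bases before the start in Psmb5 and 9 bases before it in Psmb6. RefSeq windows were matched for 37 of the 45 genes (40 windows), and Psmb7 was not among them. TGACNNNGC, searched on both strands, was in 5 of the 40 (12.5%), those of Psmb5, Psmb6, Psmc6, Psmd12 and Psmd9, against 10.2% of all 32851 windows. The NF-Y box CCAAT was in 13 (32.5%, against 33.8%), the interferon-response core GAAANNGAA in 3 (7.5%, against 7.13%), the nuclear respiratory factor core GCATGCGC in 2 (5.0%, against 2.26%) and the YY1 letters AAGATGGCG in 0 (against 0.606%). A match is a description of the letters only.

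The other 4 tested beta subunits are structural. Psmb2 ran from 32.5 to 67.0 CPM in Ide+/+ libraries, and from 27.0 to 30.6 CPM in Ide-/- (log2 fold change -0.55, SE 0.25, edgeR adjusted p = 0.129). Psmb3 and Psmb4 also had every Ide-/- library below every Ide+/+ library, as had 15.6% of all genes. Their log2 fold changes were -0.41 and -0.33. Psmb1 overlapped (-0.39), and none of these 4 genes was called. The beta ring had 2 of 7 tested genes called lower, against 10.6% of all genes. Its median log2 fold change was -0.41, with no gene above 0. Its summed level was 342 ± 78.8 CPM (SD, n = 5) in Ide+/+ and 262 ± 17.0 CPM (SD, n = 3) in Ide-/-.

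None of the 7 tested alpha subunits was called, and their median log2 fold change was -0.17. Psma7 was at 75.5, 53.2, 53.7, 59.2 and 83.3 CPM in Ide+/+ libraries, against 52.3, 59.1 and 62.8 CPM in Ide-/- (log2 fold change -0.16, SE 0.22, edgeR adjusted p = 0.63). Psma3 was at 98.9, 62.5, 70.9, 67.8 and 81.5 CPM against 72.1, 85.1 and 112 CPM (log2 fold change 0.24, SE 0.23, edgeR adjusted p = 0.493). Both genes overlapped between groups, with Ide-/- replicate 1 just below the lowest Ide+/+ value for Psma7 and Ide-/- replicate 3 above the highest for Psma3. The remaining alpha subunits had log2 fold changes of -0.39 (Psma2) to 0.14 (Psma1), each with overlapping groups. Psma2 shares its strand and part of its locus with AW209491 (means of 802 and 596 counts), so its reads may be divided uncertainly.

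The base had 9 tested genes and 0 called, with a median log2 fold change of -0.22. Psmc4, an ATPase that helps unfold substrates, was at 54.9, 42.7, 44.5, 47.8 and 55.4 CPM in Ide+/+ libraries, against 52.3, 59.4 and 78.4 CPM in Ide-/- (log2 fold change 0.37, SE 0.20, edgeR adjusted p = 0.216). Psmd4, a receptor for ubiquitin chains, was at 49.2, 37.6, 40.0, 42.9 and 54.5 CPM against 47.1, 50.9 and 55.0 CPM (log2 fold change 0.19, SE 0.19, edgeR adjusted p = 0.513). These were the 2 base genes with a fold change above 0, and their groups overlapped. The other 7, the ATPases Psmc1, Psmc2, Psmc3, Psmc5 and Psmc6 and the large scaffolds Psmd1 and Psmd2, lay between -0.51 and -0.03, with overlapping groups.

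The lid had 8 tested genes, 0 called, and a median log2 fold change of -0.43. Psmd11, a scaffold subunit, was at 76.0, 44.6, 49.2, 55.2 and 68.0 CPM in Ide+/+ libraries, against 61.1, 69.6 and 82.2 CPM in Ide-/-, and was the lid gene with a fold change above 0 (0.28, SE 0.23, edgeR adjusted p = 0.405). Psmd6 was at 107, 37.8, 40.2, 54.1 and 62.9 CPM against 34.9, 31.97 and 32.8 CPM. Its groups did not overlap in CPM, where Ide+/+ replicate 1 had the highest value. In TPM that library was at 37.35, against 25.78 to 35.02 in the other Ide+/+ libraries. The log2 fold change of Psmd6, -0.86 (SE 0.32), missed the threshold (edgeR adjusted p = 0.0778). Psmd8 (-0.69), Psmd13 (-0.51) and Psmd3 (-0.53) had adjusted p of 0.0534, 0.0723 and 0.0843 by the same test, and were singled out after their values were seen. Psmd8 and Psmd13 had every Ide-/- library below every Ide+/+ library, while Psmd3 overlapped. Psmd14, the deubiquitinase that removes ubiquitin chains during degradation, overlapped between groups (21.3 to 43.1 against 21.1 to 26.5 CPM, log2 fold change -0.22, edgeR adjusted p = 0.553). Reads at Psmd13 may be shared with Sirt3 on the opposite strand (means of 534 and 336 counts) and with the pseudogene Gm15542 on the same strand (126 counts). Sirt3 itself was called higher in Ide-/- (log2 fold change 0.50, edgeR adjusted p = 0.0411). The effect of any sharing was not tested.

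None of the 7 assembly chaperones was called, and their median log2 fold change was -0.13. Psmg2, which pairs with Psmg1 to build the alpha ring, was at 14.1, 9.83, 9.24, 11.4 and 12.2 CPM in Ide+/+ libraries, against 11.7, 13.6 and 16.1 CPM in Ide-/- (log2 fold change 0.28, SE 0.20, edgeR adjusted p = 0.320). Psmg1 went the other way, from 8.60 to 15.8 CPM in Ide+/+ to 6.14 to 8.22 CPM in Ide-/- (log2 fold change -0.54, edgeR adjusted p = 0.125), and its groups did not overlap. The difference between these partners was not tested. Psmd5, a chaperone of the base, was at 55.9, 24.9, 25.4, 26.3 and 36.2 CPM against 23.9, 28.4 and 26.7 CPM (log2 fold change -0.35, SE 0.28, edgeR adjusted p = 0.383). Psmg3, Psmg4, Psmd9 and Psmd10 had log2 fold changes of -0.19 to 0.04.

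Activators and the inhibitor also gave 0 calls among 5 tested genes. Psme1 and Psme2 encode the partner subunits of the interferon-inducible activator that caps the core. Psme2 was at 43.4, 35.4, 38.4, 31.2 and 47.4 CPM in Ide+/+ libraries, against 30.4, 38.0 and 41.8 CPM in Ide-/- (log2 fold change -0.09, SE 0.20, edgeR adjusted p = 0.779), and the retrocopy Psme2b, outside the rule, had 23 to 95 counts that may be shared with it. Psme1 was at 15.3, 18.7, 16.8, 15.1 and 21.03 CPM against 11.4, 13.3 and 16.0 CPM (log2 fold change -0.36, SE 0.19, edgeR adjusted p = 0.192). The ratio of Psme1 to Psme2 in TPM was 0.314 ± 0.0455 (SD, n = 5) and 0.302 ± 0.0637 (SD, n = 3), a difference smaller than the spread. Psme4, an activator of the core that needs no ubiquitin, was at 24.95, 21.7, 22.5, 24.7 and 24.8 CPM in Ide+/+ libraries, against 32.2, 29.1 and 34.8 CPM in Ide-/-. It was the one gene of the 43 with every Ide-/- library above every Ide+/+ library, where 17.4% of all genes were, and its log2 fold change of 0.43 (SE 0.16) missed the threshold (edgeR adjusted p = 0.0791). Psme3, the nuclear activator, and Psmf1, the inhibitor, had log2 fold changes of -0.20 and -0.55 and were not called. In the opposite direction, 12 of 43 genes had every Ide-/- library below every Ide+/+ library in CPM, against 15.6% of all genes.

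The summed level of the genes depended on the scale. In TMM-scaled CPM it was 2209, 1299, 1365, 1472 and 1763 in Ide+/+ libraries, against 1308, 1412 and 1515 in Ide-/-, and the groups overlapped. In TPM it was 816, 1262, 1279, 858 and 807 in Ide+/+ libraries, against 1728, 1757 and 1507 in Ide-/-, and every Ide-/- library was higher. TPM is a share of all transcripts, of which acinar markers take much in Ide+/+ libraries. Ide+/+ replicates 2 and 3, with the lowest acinar shares of that group, had its highest summed TPM. These 2 libraries were also far closer to each other than any other pair. The part of acinar content in the summed TPM was not tested. In TPM 28 of 43 genes had every Ide-/- library above every Ide+/+ library and 0 below, where 39.3% of all genes lay above. By limma on log2(TPM + 1), 17 of 43 were called higher and 0 lower, against 36.4% of all genes called higher, with a median log2 fold change of 0.50 over all genes. Relative to that shift Psmb5 (-0.12) and Psmb7 (0.0015) again lay lowest of the 3 catalytic genes, with Psmb6 at 0.89. In TPM, Psmb5 was at 27.6 ± 6.41 (SD, n = 5) and 25.5 ± 6.98 (SD, n = 3), and Psmb7 at 18.9 ± 4.54 and 18.9 ± 4.78, both overlapping, while Psmb6 went from 92.4 ± 18.7 to 169 ± 9.58.

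**Figure D3:**
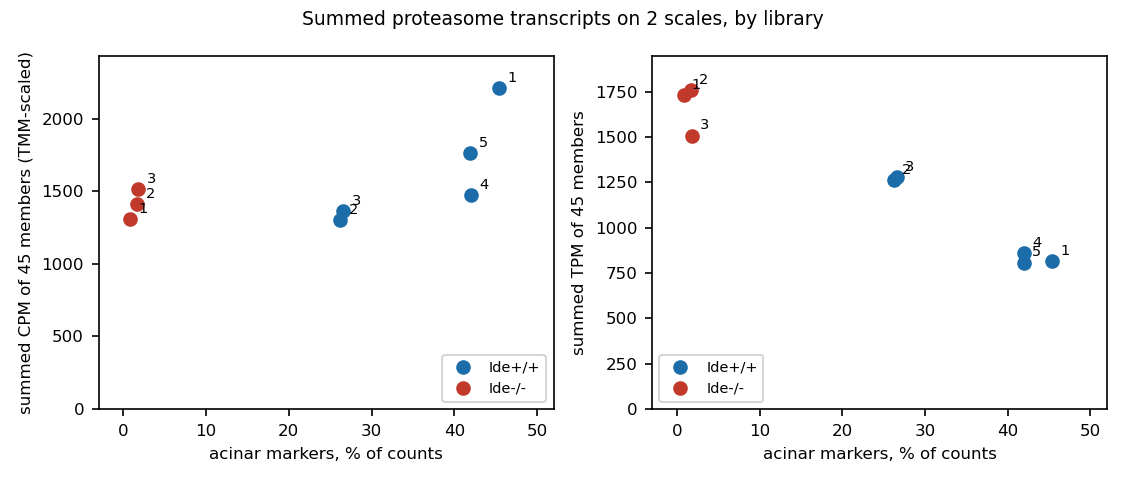
Summed level of the 45 genes in each library (y axis; TMM-scaled CPM at left, TPM at right, both from 0) against the share of counts taken by acinar markers (x axis, %), numbered by replicate. The groups overlap in CPM, and all 3 Ide-/- libraries (1507 to 1757) exceed all 5 Ide+/+ libraries (807 to 1279) in TPM.

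The make-up of the proteasome transcript pool does not depend on how libraries are scaled to each other, since each gene's TPM is divided by the summed TPM of the 45 in its own library. Psmb5 made up 2.89%, 2.78%, 2.61%, 2.99% and 2.50% of the pool in Ide+/+ and 1.76%, 1.62% and 1.16% in Ide-/-. Psmb7 made up 2.28%, 1.83%, 1.87%, 1.79% and 1.68% against 1.31%, 1.17% and 0.90%. Neither gene's groups overlapped. Psmb6 made up 9.34% ± 1.63 (SD, n = 5) and 10.2% ± 0.77 (SD, n = 3), and overlapped. Shares that were higher in every Ide-/- library included those of Psmc4 (2.93% ± 0.348 to 4.46% ± 0.520), Psme4 (0.436% ± 0.124 to 0.827% ± 0.092) and Psmg2 (0.912% ± 0.085 to 1.33% ± 0.109). Of the 43 genes, 11 had shares lower and 7 higher in every Ide-/- library, where the same ratio to the pool was lower for 10.4% and higher for 19.1% of all genes tested. When libraries were scaled to the summed counts of these genes and refitted, Psmb5 (-0.83, edgeR adjusted p = 0.0155) and Psmb7 (-0.71, edgeR adjusted p = 0.0287) were again called lower.

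By role, the beta ring took 29.3% ± 1.37 (SD, n = 5) of the pool in Ide+/+ and 26.0% ± 0.51 (SD, n = 3) in Ide-/-, and 24.7% ± 1.58 and 23.4% ± 0.16 without Psmb5 and Psmb7. The base took 19.98% ± 0.53 and 22.2% ± 0.33, and the alpha ring 21.8% ± 0.46 and 23.3% ± 0.57. The lid took 16.6% and 15.6%, and the activators with the inhibitor 7.12% and 7.35%. The chaperones took 5.18% and 5.60%, with every Ide-/- library (5.50% to 5.76%) just above every Ide+/+ library (4.94% to 5.49%). Shares sum to the whole, so a lower share of one role raises the others.

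**Figure D4:**
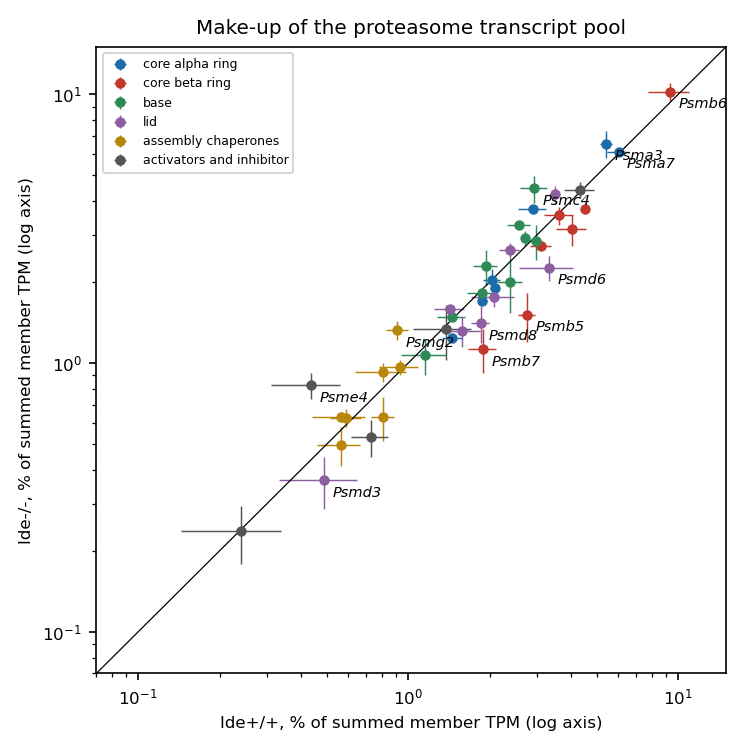
Share of the summed TPM of the 45 genes that each gene took in Ide-/- (y axis, %, log scale) against Ide+/+ (x axis, %, log scale), as group means with SD bars, coloured by role; the line marks equal shares. Psmb5 (2.75% to 1.51%) and Psmb7 (1.89% to 1.13%) lie below the line, and Psme4 and Psmc4 above it.

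The immunoproteasome counterparts, which replace the catalytic subunits in immune and interferon-exposed cells, are given for reference. Psmb10, the counterpart of Psmb7, fell from 59.9, 30.7, 32.2, 90.0 and 79.3 CPM in Ide+/+ to 7.46, 9.68 and 10.4 CPM in Ide-/- (log2 fold change -2.68, SE 0.39, edgeR adjusted p = 0.0013). Psmb8, the counterpart of Psmb5 (-0.13, adjusted p = 0.749), and Psmb9, that of Psmb6 (-0.65, adjusted p = 0.0603), were not called by the same edgeR test. The ratio of Psmb10 to Psmb7 in TPM ranged from 2.82 to 8.29 in Ide+/+ libraries and from 0.633 to 1.34 in Ide-/-, with no overlap. That of Psmb8 to Psmb5 was 0.241 to 0.566 against 0.484 to 1.12, and that of Psmb9 to Psmb6 was 0.0275 to 0.0459 against 0.0268 to 0.0297, and both overlapped.

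Genes that work with the proteasome were taken from a list of 31, of which 30 were matched and 29 tested. Of these 4 were lower and 0 higher, with a median log2 fold change of -0.24, against the backgrounds of 10.6% and 10.4% above. Nfe2l2, encoding NRF2, was at 26.2, 19.98, 19.8, 19.4 and 25.4 CPM in Ide+/+ libraries, against 10.1, 12.0 and 10.5 CPM in Ide-/- (log2 fold change -1.02, SE 0.19, edgeR adjusted p = 0.0039), with no overlap. Nfe2l1, encoding NRF1, overlapped between groups (13.6 to 22.1 against 15.5 to 17.2 CPM, log2 fold change -0.24, edgeR adjusted p = 0.395).

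Rps27a, which encodes ubiquitin fused to a ribosomal protein, was also called. It was at 131, 104, 99.2, 153 and 140 CPM in Ide+/+ libraries, against 70.7, 75.2 and 79.0 CPM in Ide-/- (log2 fold change -0.74, SE 0.23, edgeR adjusted p = 0.0385). Leaving out Ide+/+ replicate 4 or 5 or any of the 3 Ide-/- replicates ended this call, with adjusted p of 0.063 to 0.137 by the same edgeR test, whereas Nfe2l2 was called without each library in turn (0.0021 to 0.0275). The polyubiquitin gene Ubb was not called. It stood at 1579 ± 533 CPM (SD, n = 5) and 1538 ± 449 CPM (SD, n = 3; edgeR adjusted p = 0.956). The proteasome maturation factor Pomp (-0.06), the proteasome-bound deubiquitinase Usp14 (0.07) and the segregase Vcp (-0.58) were not called either.

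Ribosomal protein genes, another set of genes for a large complex, give a scale for these values. Of 79 tested cytosolic ribosomal protein genes 53 were lower, with a median log2 fold change of -0.87, and of 78 mitochondrial ribosomal protein genes 11 were lower, with a median of -0.36, against 2 of 43 and -0.24 for the proteasome. On this TMM scale 10.6% of all genes were called lower. In TPM, the summed cytosolic set was 12941 ± 2974 (SD, n = 5) in Ide+/+ and 12901 ± 1247 (SD, n = 3) in Ide-/-. Every Ide-/- library lay above every Ide+/+ library for 11 of the 79 genes and below for 3. The summed mitochondrial set was 1383 ± 255 and 2053 ± 107 TPM, with 35 of 78 genes above and 0 below. Over all genes tested 39.3% lay above in TPM. The difference between the sets was not tested.

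The calls near the threshold turned on single libraries and tools. Ide+/+ replicate 1 had the smallest TMM factor (0.405, a divisor of its counts). Its summed TPM of the 45 genes (816) was near the lowest of its group (807 to 1279). In CPM this library held the highest value of 29 of the 43 genes. Without it, Psmb5, Psmb7, Psmd8 and Psmd13 were called lower and Psme4 higher, when 13.3% of all genes were lower and 13.4% higher. DESeq2 called those 5 and Psmd6, lower, against 11.7% of all genes lower and 10.3% higher. With the acinar share as a covariate none of the 43 was called and Psmb5 stood at 0.06 (edgeR adjusted p = 0.96), but that share differs so fully between the genotypes that the fit left 12 genes called over the whole table. Acinar content and genotype therefore cannot be told apart in these libraries. With the acinar markers removed before scaling, 2 genes were again called lower and 0 higher, against 1665 lower and 1726 higher of all 15710 tested.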

How the data were processed

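Hand-picked islets of 8 mouse libraries (5 Ide+/+, 3 Ide-/-) were sequenced from 100 ng of RNA with RIN above 6.5 and a low-input kit, per the labels' protocols. The authors deposited expected counts and TPM per gene; STAR 2.7.1a, RSEM 1.3.1 and GRCm38 are named in the submitters' processing notes. RSEM divides reads that fit several genes, and strand use is not given in the sources used here. Deposited expected counts were rounded to whole numbers. Identifiers were given GENCODE M21 symbols (55227 of 55487). Genes passed edgeR's filterByExpr (minimum count 10, minimum total 15). Genotype was tested with edgeR 4.0.16 (quasi-likelihood, robust, TMM, R 4.3.3), with Benjamini-Hochberg adjustment over all tested genes and a threshold of 0.05. CPM are TMM-scaled. The deposited TPM values were tested with limma 3.58.1 on log2(TPM + 1), where fold changes of low genes are understated. DESeq2 1.42.0, limma-voom, other scalings and filters, a pseudocount of 0.1, an acinar covariate, a replicate block and leaving out each library were alternatives; summing Ide+/+ replicates 2 and 3 was chosen after seeing the data. The scripts were tested on simulated data. There the main test recovered 31% of 100 genes set to change 2-fold and 84% of 100 set to change 4-fold. The samples were grouped by the genotype in their labels.

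The members, the lists of roles, partners and markers and the tests were chosen with earlier results of these data known. Genes given library by library were the catalytic core genes, the genes called in each role or, where fewer than 2 were called, those with the highest mean TPM until 2 were named, and the called partners, of which 2 are not reported here; Psmd3, Psmd8, Psmd13 and Psme4 were singled out after their values were seen. Promoter windows are from RefSeq (GRCm38.p6). Paaf1 was not analysed here.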

Additional observations from a re-analysis of the deposited data

Results flagged for a closer look

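Among 26 quantities checked over the 5 Ide+/+ libraries, Psmb7 in Ide+/+ replicate 1 was the 1 value far from the rest of its group: 45.5 CPM, with a gap to the nearest library of 0.723 of the group's range, above Dixon's 95% critical value of 0.71. Chance marks about 1 in 20 such groups. In TPM, Psmb7 in Ide+/+ replicate 1 was 18.65, inside the 13.6 to 23.9 of its group. Without that library Psmb7 was still called lower.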

How the results depend on the processing

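The main counts were 0 higher and 2 lower among the 43 tested proteasome genes, and 0 higher and 4 lower among the 29 tested partner genes. They were the same with RLE size factors and after removal of acinar markers. DESeq2 gave 1 higher and 5 lower proteasome genes and 1 higher partner. Summing Ide+/+ replicates 2 and 3, chosen after seeing the data, gave 4 lower proteasome genes, and scaling to secretory granule genes gave 1 lower, ending the Psmb7 call (adjusted p = 0.0534). Leaving out each library gave 0 to 1 higher and 1 to 4 lower proteasome genes, and 0 to 2 higher and 2 to 5 lower partners. Proteasome genes called lower were 4 without Ide+/+ replicate 1 or 2, and 1 when any single Ide-/- library was left out. For the partners, 2 were lower without Ide-/- replicate 2. The share of all genes called moved too. It was 21.1% in the main fit, 20.9% with RLE size factors and 21.6% after removal of acinar markers. The share was 22% with DESeq2, 18.9% with Ide+/+ replicates 2 and 3 summed and 10.2% with granule scaling. With single libraries left out it ran from 9.07% (without Ide-/- replicate 3) to 26.7% (without Ide+/+ replicate 1).

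On log2(TPM + 1), log2(TPM + 0.1) and log2(TPM + 1) without a filter, 17, 14 and 12 proteasome genes were higher and 0 lower. For the partners, 9, 9 and 3 were higher and 0 lower. The fit without a filter tested 45 proteasome genes and 30 partners. Over all genes 5925, 4737 and 3873 were called higher in these fits, of 16266, 16266 and 30481 tested. Of all calls on log2(TPM + 1), 93.5% were higher, against 49.6% in the main fit and 45.4% with granule scaling. The log2 fold changes turned positive on log2(TPM + 1), with and without the filter alike, and on log2(TPM + 0.1): Psmb6 0.89 and 0.90, Psmb7 0.0015 and 0.0015, Psma7 0.78 and 0.79, Psmd6 0.22 and 0.23, Psmd5 0.76 and 0.81, Psme2 0.78 and 0.79, Psme1 0.68 and 0.72, Rps27a 0.18 and 0.18, Psmd8 0.34 and 0.35, Psmd13 0.47 and 0.50, Psmd3 0.30 and 0.38. With acinar content as a covariate, 0 proteasome genes and 0 partners were lower, and the sign turned for Psmb5 (0.063), Psmb6 (1.29), Psmb7 (0.25), Psma7 (0.79), Psmd6 (1.29), Psmd5 (1.18), Psme2 (0.25), Rps27a (0.22), Psmd8 (0.47) and Psmd13 (0.15). Psmb6, at -0.02 in the main fit, was also above 0 in other fits, at 0.0033 with granule scaling, 0.17 scaled to the summed proteasome genes, 0.02 without Ide+/+ replicate 1, 0.13 without Ide+/+ replicate 5 and 0.09 without Ide-/- replicate 1. Scaled to the summed proteasome genes, Psma7 was 0.024 and Psme2 0.074. Leaving out each library gave log2 fold changes of -0.15 to 0.13 for Psmb6 and -0.19 to 0.025 for Psme2, the latter positive without Ide-/- replicate 1. The covariate is confounded with genotype, and TPM moves the median of all genes. The cause of these changes of sign was not tested.

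With the replicate number as a block over replicates 1 to 3, 0 proteasome genes and 2 partners were lower (Psmb6 0.19). In the same 6 libraries with no block, 1 proteasome gene and 3 partners were lower (Psmb6 0.17). Over all genes 7.01% were called with the block and 9.44% without it. Same-numbered libraries did not deviate together (correlations of -0.0072, -0.0461 and 0.0466). With 3 libraries per genotype this cannot exclude a pairing by number, and the labels state none. Depth limits the least counted tested gene, Psmg4, at 45 to 161 counts per library.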

Other observations

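Psmc3ip, a meiotic recombination factor named for its binding to Psmc3 and not a proteasome subunit, was higher in Ide-/- islets: it stood at 3.06, 3.54 and 4.95 CPM there, against 1.40, 1.81, 1.85, 1.41 and 2.68 CPM in Ide+/+ islets (log2 fold change 1.06, SE 0.29, edgeR adjusted p = 0.0223). The groups did not overlap. It was looked at because its symbol begins like those of the proteasome genes. Among partner genes that were not called, the proteasome-bound deubiquitinase Uchl5 had a log2 fold change of -0.92 (edgeR adjusted p = 0.0541), with all 3 Ide-/- libraries (16.6 to 18.3 CPM) below all 5 Ide+/+ libraries (18.8 to 49.6 CPM). Akirin2, which carries proteasomes into the nucleus, had all 3 Ide-/- libraries (5.57 to 7.43 CPM) above all 5 Ide+/+ libraries (2.81 to 5.23 CPM; log2 fold change 0.48, edgeR adjusted p = 0.164).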
